A study of Mus musculus with 6 samples.

Results

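The homeodomain-interacting protein kinases (HIPKs) are 4 genes, Hipk1 to Hipk4, among the 23235 genes of a hippocampal expression table. They were taken by symbol, and all 4 had enough signal for a test by the authors. The set was selected on the fall of the Hipk4 FPKM in the mutant, taken from this same table, so the authors' p- and q-values for these genes are quoted as descriptions. Of 320 alternative splicing events listed for the same samples, 1 lay in a HIPK gene, a cassette exon of Hipk3.

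The study compared adult male hippocampus of Nes-cKO mice (Rbfox1 fl/fl; Nes/+) with that of wildtype mice (Rbfox1 fl/fl; +/+), 3 mice of each at 60 to 70 days of age. Their age is also given as 2 to 3 months. Every mouse carried Rbfox1 alleles flanked by loxP sites, and only the Nes-cKO mice carried Cre, driven by Nestin, which is active in neural progenitors. Deletion is therefore inherited by neurons and by the glia that descend from these progenitors, throughout the nervous system, and effects of Cre itself cannot be told apart from those of the deletion. Polyadenylated RNA was read as strand-specific pairs of 50 bp. The level of a gene is given as FPKM, fragments scaled to transcript length and to sequencing depth, so levels can be set side by side between genes. There is 1 value per gene and genotype, which combines the 3 mice. No spread between mice was analysed here, sequencing depth is unknown, and no value below carries a replicate error. The deleted gene, Rbfox1, was at 23.0 FPKM in Nes-cKO, against 67.5 FPKM in wildtype, over the whole gene.

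HIPKs are serine/threonine kinases of the CMGC group, the group that also holds cyclin-dependent and MAP kinases, and their closest relatives are the DYRK kinases. HIPK1, HIPK2 and HIPK3 are mostly nuclear proteins that bind homeodomain transcription factors and phosphorylate transcription factors and corepressors, among them p53 and CtBP. Their abundance is set largely by ubiquitin ligases of the Siah and MDM2 type. HIPK4 is the divergent member: it is shorter, lacks the homeodomain-interacting region, and in mice is best known for its part in shaping the sperm head. Rbfox1 is an RNA-binding protein of neurons that recognises UGCAUG in introns, where it steers splicing, and in 3′ untranslated regions, where it can affect messenger RNA level.

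Hipk4 was much lower in Nes-cKO hippocampus, while the other 3 HIPK genes differed little between genotypes. Hipk4 (mm9 chromosome 7, 28308280 to 28316193) stood at 1.60 FPKM in Nes-cKO and 8.51 FPKM in wildtype. The Nes-cKO level was 18.8% of the wildtype level, a 5.31-fold difference and a log2 ratio of -2.41. In the authors' deposited table its q-value was 0.00152 and its p-value 5e-05, the smallest that table holds and one shared by 491 genes. Of the 12685 tested genes that reached 1 FPKM in Nes-cKO or wildtype, 16 had a lower log2 ratio than Hipk4, and 3 of these 16 passed a q of 0.05. In level it outranked 8.55% of these genes in Nes-cKO and 48.8% in wildtype. Hippocampus was bulk tissue, so fewer cells that make Hipk4 and less Hipk4 RNA in each such cell cannot be told apart.

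Hipk1 and Hipk3 were the most abundant HIPK transcripts in either genotype. Hipk1 (mm9 chromosome 3, 103543738 to 103595198) stood at 14.2 FPKM in Nes-cKO and 14.7 FPKM in wildtype, with a log2 ratio of -0.04 and q = 0.988 in the authors' deposited table. Hipk3 (chromosome 2, 104266639 to 104334646), a kinase also described in Fas signalling through its adaptor FADD, stood at 10.3 FPKM in Nes-cKO and 9.90 FPKM in wildtype. Its log2 ratio was 0.06, with q = 0.968 in the authors' deposited table. Hipk2 (chromosome 6, 38647839 to 38826189), the member best known as a p53 kinase of the DNA damage response, stood at 4.59 FPKM in Nes-cKO and 4.96 FPKM in wildtype. The log2 ratio of Hipk2 was -0.11, with q = 0.891 in the authors' deposited table. Ratios this small were common, since 73.9% of the 12685 genes lay within 0.2 of 0 on the log2 scale.

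Of the 4 HIPK genes, 1 passed the authors' q of 0.05, against a background of 7.10% of those 12685 genes (2.41% lower and 4.69% higher in Nes-cKO) and of 6.92% of all 14964 tested genes (2.29% lower and 4.62% higher). Because the group was chosen for Hipk4, nothing is read from that count. The order of the levels in Nes-cKO was Hipk1, Hipk3, Hipk2, Hipk4. In wildtype it was Hipk1, Hipk3, Hipk4, Hipk2, so Hipk4 and Hipk2 changed places. Without values per mouse, no neighbours in these orders can be said to differ beyond their spread. Hipk4 made up 5.21% of the summed HIPK level in Nes-cKO and 22.4% in wildtype. The sum of all 4 was 30.8 FPKM in Nes-cKO and 38.0 FPKM in wildtype, and the sum without Hipk4 was 29.2 FPKM in Nes-cKO and 29.5 FPKM in wildtype. The difference between the ratio of Hipk4 and those of its relatives was not tested.

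**Figure D1:**
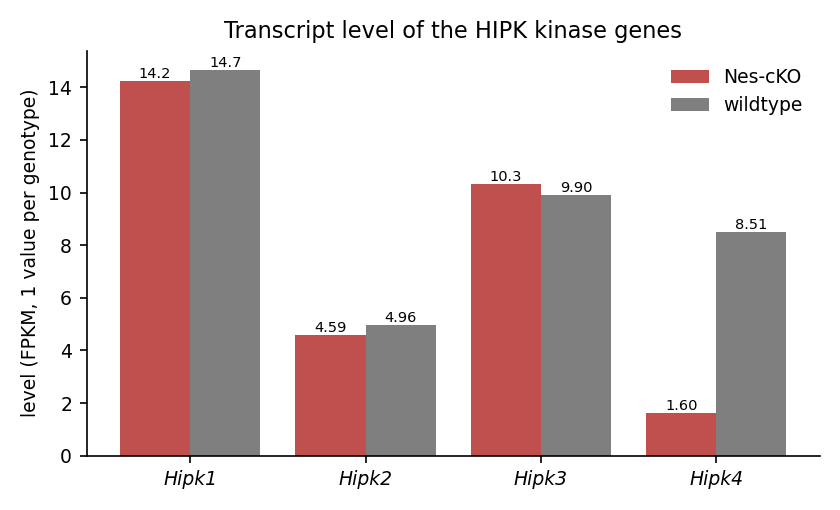
Transcript level (FPKM, 1 value per genotype combining 3 mice, hence no error bars) of the 4 HIPK genes in Nes-cKO (red) and wildtype (grey). Hipk4 is at 1.60 FPKM in Nes-cKO and 8.51 FPKM in wildtype, while the bars of Hipk1, Hipk2 and Hipk3 are nearly level.

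**Figure D2:**
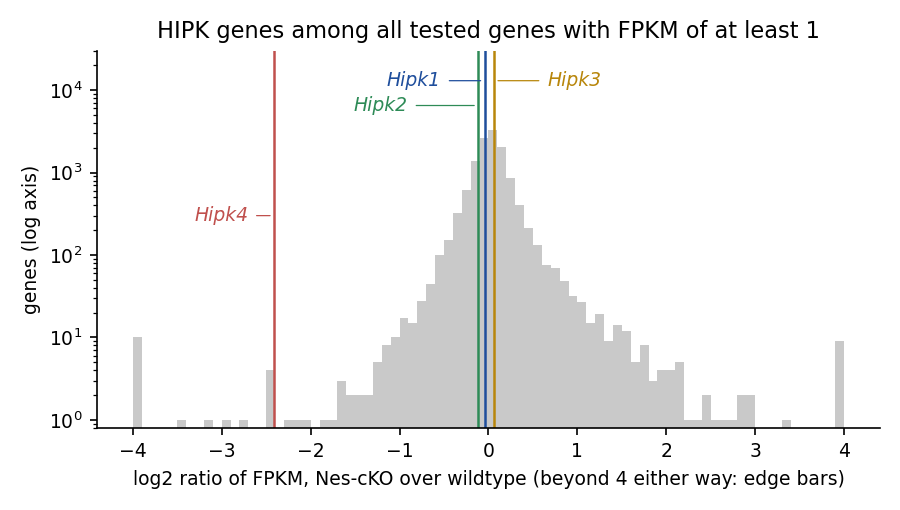
Distribution of the log2 ratio of FPKM, Nes-cKO over wildtype, over the 12685 tested genes that reached 1 FPKM, with the number of genes on a log axis and vertical lines at the HIPK genes. Hipk4 at -2.41 lies in the thin left tail, and Hipk1, Hipk2 and Hipk3 lie within the central peak.

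The gene models set Hipk4 apart as well. In GENCODE M21 (GRCm38) the longest coding sequence of Hipk4 had 1848 nt, against 3630 nt for Hipk1, 3588 nt for Hipk2 and 3639 nt for Hipk3. Coding transcripts of Hipk4 had up to 4 exons, whereas those of Hipk1, Hipk2 and Hipk3 had up to 16, 15 and 17. The longest annotated 3′ untranslated region had 311 nt in Hipk4, 4136 nt in Hipk1, 3748 nt in Hipk2 and 3377 nt in Hipk3. The Rbfox motif TGCATG, searched on the transcribed strand only, occurred 4 times in that of Hipk3 and 1 time in that of Hipk1. It was not found in those of Hipk2 and Hipk4. Among genes whose longest 3′ untranslated region was within 20% of the same length, the motif occurred in 67.5% for Hipk3, 74.4% for Hipk1, 71.1% for Hipk2 and 8.96% for Hipk4. These are letter matches and say nothing of binding. Introns of the HIPK genes were not searched.

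Hipk3 held the listed splicing event. Cassette exons are internal exons that are kept in some transcripts and skipped in others. The authors listed only events whose inclusion ratio, the share of transcripts that keep the exon, moved by more than 10 percentage points, so the change below is what put the exon on the list. The exon lies at mm9 chromosome 2, 104274747 to 104274871, on the minus strand, between exons at 104275093 to 104275214 (upstream) and 104274495 to 104274656 (downstream). The authors' inclusion ratio was 80.0% in Nes-cKO and 65.8% in wildtype, a rise of 14.2 points, and 80 of the 249 listed cassette exons changed by more. Their deposited p-value was 1.15e-08.

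The listed exon had 125 nt, and the 4 annotated Hipk3 transcripts of GENCODE M21 held none of that size. All 4 carried an exon of 128 nt in its place, exon 10 of the transcript with the longest 3′ untranslated region, between flanking exons of the same sizes (122 and 162 nt) and over the same span of 720 nt. It lies at chr2:104434590-104434717 in GRCm38, within the coding sequence, and differs from the listed exon by 3 further bases at its 5′ end. Those bases, in capitals below, end in AG, the dinucleotide that closes an intron, so an acceptor after them would give the listed form. The sequences show exon 10 and then the 15 bases on either side of each junction, 5′ to 3′, from the GENCODE transcript.
exon 10 as annotated: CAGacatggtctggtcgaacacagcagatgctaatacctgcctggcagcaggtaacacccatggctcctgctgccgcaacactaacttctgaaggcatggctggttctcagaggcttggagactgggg
exon 9 to exon 10 as annotated: ggagtcctttcacagCAGacatggtctggt
exon 9 to the listed exon: ggagtcctttcacagacatggtctggtcga
exon 9 to exon 11, exon 10 skipped: ggagtcctttcacaggaaaatgattccaca
exon 10 to exon 11: gcttggagactgggggaaaatgattccaca
The 3 bases keep the reading frame, whereas neither 125 nor 128 is a multiple of 3, so skipping the whole exon shifts it. The full Rbfox motif TGCATG occurs 0 times in the exon. It contains the shorter core GCATG 1 time, as do 14.0% of the 992 internal exons of 128 nt counted over 1 transcript per gene. The introns on either side were not searched for either motif.

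The reads behind the Hipk3 event were unequal at its borders, with the files' exon numbers read in the order of their coordinates. Reads from exon 9 into the listed exon, the third of the sequences above, numbered 14 in Nes-cKO and 13 in wildtype. Reads from it into exon 11, a border that the 125 and 128 nt forms share, numbered 99 in Nes-cKO and 81 in wildtype. Reads that skipped it numbered 4 in Nes-cKO and 6 in wildtype. The downstream junction thus had 7.07 times the reads of the upstream one in Nes-cKO and 6.23 times in wildtype, against a median imbalance over the 249 cassette exons of 1.64 in Nes-cKO and 1.71 in wildtype. Only 27 of the 249 exons were more unequal in either genotype. No listed junction column covers exon 9 joined to the 128 nt form, so its use was not analysed here.

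The size of the Hipk3 change depended on which reads were set against the skipping reads. With the mean of both inclusion junctions, inclusion was 93.4% in Nes-cKO (95% Wilson interval 84.3% to 97.4%, 61 reads) and 88.7% in wildtype (77.4% to 94.7%, 53 reads). With the upstream junction, which alone is particular to the 125 nt form, it was 77.8% in Nes-cKO (54.8% to 91.0%, 18 reads) and 68.4% in wildtype (46.0% to 84.6%, 19 reads). With the downstream junction it was 96.1% in Nes-cKO (90.4% to 98.5%, 103 reads) and 93.1% in wildtype (85.8% to 96.8%, 87 reads). Inclusion was higher in Nes-cKO each time, but each version used the same skipping reads (4 in Nes-cKO and 6 in wildtype). These are not separate checks, and the exon was listed for its change. The intervals, which cover counting error only, overlapped each time. Given as a description, Fisher's exact test (two-sided) on the mean junction reads gave p = 0.510 for Hipk3, or 0.575 after Benjamini-Hochberg adjustment over the 249 exons. Of these exons 24.1% passed that test, which compares pooled libraries. The exon's read coverage relative to the mean of its neighbours was 83.0% in Nes-cKO and 68.5% in wildtype.

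**Figure D3:**
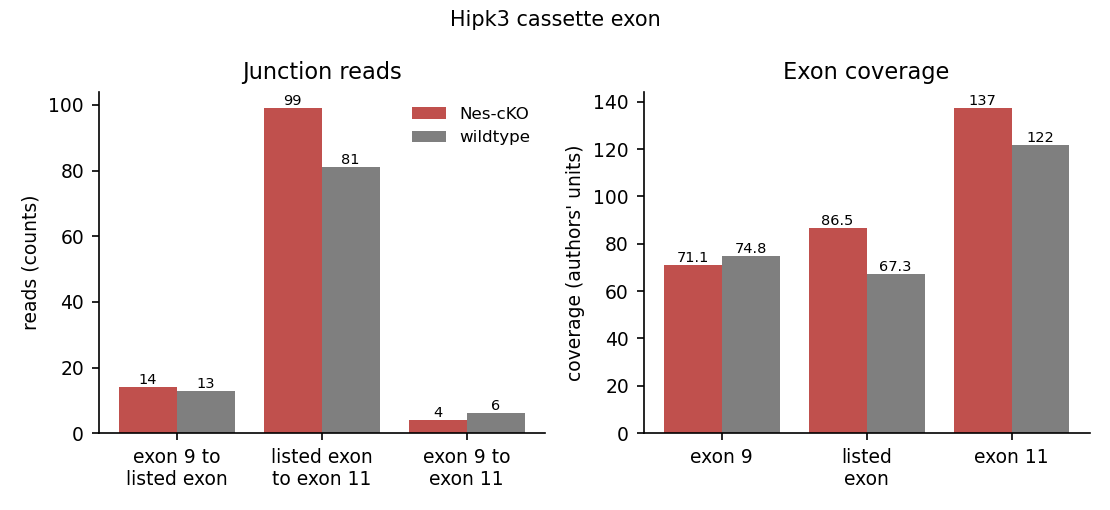
Junction reads (left, counts) and read coverage (right, in the authors' units) of the Hipk3 cassette exon and its neighbours in Nes-cKO (red) and wildtype (grey), 1 pooled value per genotype. Reads from the listed exon into exon 11 (99 in Nes-cKO and 81 in wildtype) far exceed reads from exon 9 into it (14 in Nes-cKO and 13 in wildtype), and coverage of the listed exon is 86.5 in Nes-cKO and 67.3 in wildtype.

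Around Hipk4, the adjacent gene before it, Prx, fell with it, the nearer gene beyond it, Pld3, did not, and Sertad1 rose. Prx, which encodes periaxin, a scaffold protein of Schwann cell myelin, ends 3.22 kb before Hipk4 begins and is read from the same strand. Prx fell to 0.126 FPKM in Nes-cKO, against 0.561 FPKM in wildtype, a log2 ratio of -2.15 with q = 0.00152 in the authors' deposited table, though its level was below 1 FPKM in either genotype. Sertad1, a SERTA domain gene whose protein binds CDK4, lies 32.9 kb before Hipk4. It rose to 10.4 FPKM in Nes-cKO, against 3.98 FPKM in wildtype, 2.60-fold higher with q = 0.00152 in the authors' deposited table. Pld3, which encodes a lysosomal member of the phospholipase D family, lies 0.843 kb beyond the other end on the opposite strand. It stood at 242 FPKM in Nes-cKO and 199.6 FPKM in wildtype and did not pass (q = 0.161 in the authors' deposited table). No gene in the table overlapped Hipk4.

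Apart from Prx and Sertad1, no tested gene near Hipk4 passed. Of 11 other tested genes within 150 kb of Hipk4, these 2 passed, against a background of 6.92% of all tested genes, and the remaining 9 had log2 ratios between -0.22 and 0.32. Sertad3 stood at 1.56 FPKM in Nes-cKO and 1.81 FPKM in wildtype. The kinase gene Akt2 stood at 24.3 FPKM in Nes-cKO and 25.0 FPKM in wildtype, and 2310022A10Rik at 7.61 FPKM in Nes-cKO and 7.43 FPKM in wildtype. Of the 14 tested genes among the nearest neighbours of Hipk1, Hipk2 and Hipk3, 0 passed the authors' Cuffdiff q of 0.05. An unadjusted p below 0.05 was found for 0 of them, with log2 ratios between -0.10 and 0.30. With 6.92% of all tested genes called, a count of 0 among 14 is not a result about these genes. The share of all genes below that unadjusted p was not counted. Olfml3, next to Hipk1, stood at 7.94 FPKM in Nes-cKO and 7.10 FPKM in wildtype, and Clec2l, next to Hipk2, at 26.5 FPKM in Nes-cKO and 24.8 FPKM in wildtype. The microRNA gene Mir1902, which lies within the locus of Hipk3, was listed at 0 in both genotypes and had no test.

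**Figure D4:**
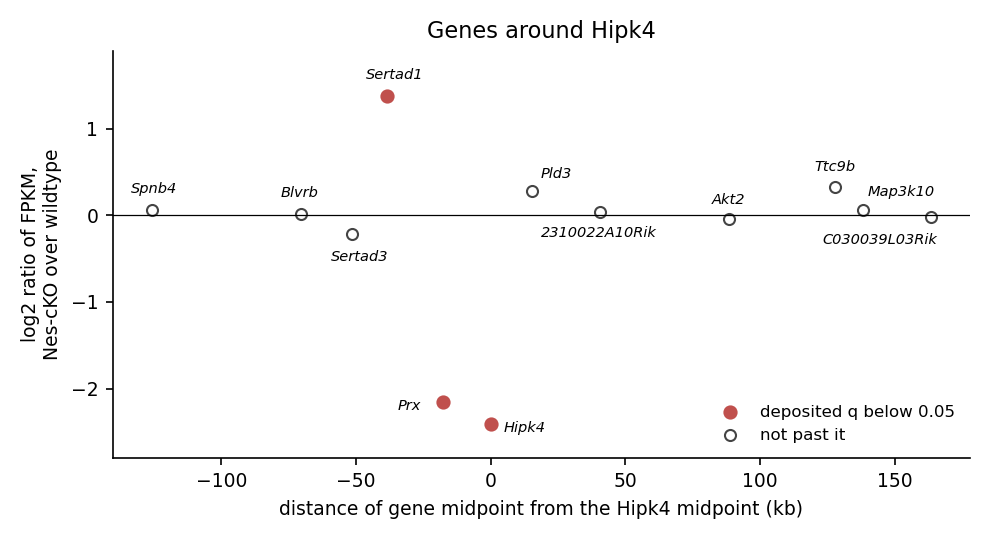
Log2 ratio of FPKM, Nes-cKO over wildtype, of the 12 tested genes within 150 kb of Hipk4, by the distance of each gene's midpoint from that of Hipk4. Filled points passed the authors' q of 0.05: Hipk4 and Prx lie at -2.41 and -2.15, Sertad1 lies at 1.38, and the other genes lie near 0.

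Few genes had levels like those of Hipk4 in both genotypes. The measure uses the values on which Hipk4 was chosen, so genes near it are also lower in Nes-cKO. Likeness was measured as the distance between log2 FPKM pairs, over 2 values per gene, and the nearest gene, the small nucleolar RNA gene Snora81, was 0.474 away. Snora81 stood at 2.22 FPKM in Nes-cKO and 9.004 FPKM in wildtype but did not pass (q = 0.834 in the authors' deposited table). Ntf3, which encodes neurotrophin 3, followed at a distance of 0.515, with 1.64 FPKM in Nes-cKO and 5.96 FPKM in wildtype. Next came Pdyn, the prodynorphin gene, Scn4b, a sodium channel subunit gene, and St3gal1, a sialyltransferase gene, at distances of 0.864, 0.970 and 0.996. These had 1.49, 2.04 and 2.23 FPKM in Nes-cKO, against 4.70, 4.55 and 4.65 FPKM in wildtype, and for these as for Ntf3 the authors' deposited table gave q = 0.00152. The other HIPK genes, with ratios near 0, had closer matches. The nearest were Acp2 and Mau2 for Hipk1, Smcr7 and Insr for Hipk2, and Mapkbp1 and Ccdc22 for Hipk3, none farther than 0.0124.

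Among related kinases, about as many genes were called as over all genes, and those called were higher in Nes-cKO. Of 13 genes of the DYRK, CLK, PRP4 and SRPK families, 12 reached 1 FPKM. Dyrk3, whose protein dissolves stress granules and other condensates, rose to 9.65 FPKM in Nes-cKO, against 6.98 FPKM in wildtype, with q = 0.0224 according to the authors' deposited table. The other 11 did not pass, and the median log2 ratio of the 12 was 0.06, beside 0.03 over all 12685 genes. Of 45 further CMGC kinases, 37 were measured at that level, 3 rose and 34 did not pass, with a median log2 ratio of 0.05. The shares called, 8.33% of the first list and 8.11% of the second, are near the background of 7.10%, and with 2.41% of all genes called lower, lists of this size hold few or none by that share. Cdk18 rose to 24.3 FPKM in Nes-cKO, against 7.66 FPKM in wildtype. The MAP kinase genes Mapk12 (p38 gamma) and Mapk4 rose to 4.78 and 13.0 FPKM in Nes-cKO, against 1.80 and 7.90 FPKM in wildtype. Among all 53 CMGC genes at that level, HIPKs included, the steepest fall was that of Hipk4. The HIPK group was chosen for that fall, so nothing is read from its rank. The next steepest was that of Cdkl1 at a log2 ratio of -0.60, which did not pass (3.64 FPKM in Nes-cKO and 5.53 FPKM in wildtype, q = 0.812 in the authors' deposited table). A gene could reach 1 FPKM through 1 genotype alone, so these counts leave out genes low in both.

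**Figure D5:**
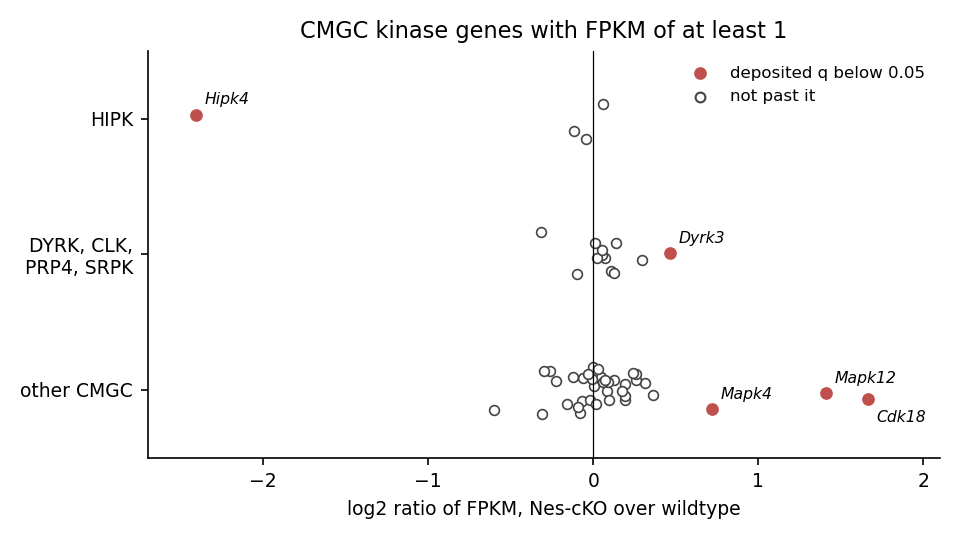
Log2 ratio of FPKM, Nes-cKO over wildtype, of 53 CMGC kinase genes that reached 1 FPKM, in 3 rows by family (vertical scatter has no meaning). Filled points passed the authors' q of 0.05: Hipk4 is the filled point below 0, and Dyrk3, Mapk4, Mapk12 and Cdk18 are those above it.

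Of 18 genes whose products act on HIPK proteins, 17 were measured and 0 passed, nor was any authors' Cuffdiff p-value below 0.05 before adjustment (0 genes), with log2 ratios between -0.24 and 0.13 and a median of -0.01. Beside the background of 7.10%, a count of 0 in a list this short is not a result about these genes. The share of all genes with an unadjusted p below 0.05 was not counted. The ubiquitin ligase genes Siah1a, Siah2 and Mdm2 were at 9.78, 5.28 and 13.4 FPKM in Nes-cKO and at 9.06, 5.13 and 12.6 FPKM in wildtype. The Siah genes and Mdm2 were named after their values were seen.

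Few substrates of HIPK proteins and few targets of p53 and Wnt were called, in both directions. Of 32 substrates and partners of HIPK proteins, 29 were measured, 2 rose, 1 fell and 26 did not pass, with a median log2 ratio of 0.01. Ctnnb1, which encodes beta-catenin, rose to 158 FPKM in Nes-cKO, against 121 FPKM in wildtype, with q = 0.0163 in the authors' deposited table. Ski, a corepressor gene of TGF-beta signalling, rose to 34.8 FPKM in Nes-cKO, against 25.7 FPKM in wildtype. Foxo1, a transcription factor gene of insulin signalling, fell to 5.43 FPKM in Nes-cKO, against 7.48 FPKM in wildtype. Of 25 transcriptional targets of p53, 21 were measured, 3 rose, 1 fell and 17 did not pass, with a median of -0.00411. Gadd45a and the cell cycle inhibitor gene Cdkn1a rose to 3.52 and 4.97 FPKM in Nes-cKO, against 1.98 and 2.88 FPKM in wildtype, and Plk2 to 90.6 FPKM in Nes-cKO, against 64.8 FPKM in wildtype. The antiproliferative gene Btg2 fell to 3.47 FPKM in Nes-cKO, against 4.90 FPKM in wildtype. Of 20 Wnt targets, 11 were measured, Cd44 rose, Nkd2 fell and 9 did not pass, with a median of 0.12. The shares called were 10.3% of substrates, 19.0% of p53 targets and 18.2% of Wnt targets, beside the background of 7.10%. They rest on 3, 4 and 2 genes, so nothing is read from them. Whether these genes respond to HIPK activity was not tested.

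Cell type markers moved in the same libraries in which Hipk4 fell, and their part in its fall was not tested. The counts below stand beside the background of 7.10% of genes called, 4.69% higher and 2.41% lower. Of 10 oligodendrocyte markers, 9 fell, and the list summed to 1175 FPKM in Nes-cKO and 1721 FPKM in wildtype. Of 10 cerebellar markers, 9 were measured and 7 rose, and the list summed to 67.3 FPKM in Nes-cKO and 33.1 FPKM in wildtype. Of 10 dentate granule cell markers, 3 fell and none rose, with a sum of 129.9 FPKM in Nes-cKO and 130.8 FPKM in wildtype. The granule cell genes that fell were Tdo2, Plk5 and Dock10, at 0.952, 3.74 and 8.40 FPKM in Nes-cKO and at 4.37, 7.55 and 11.8 FPKM in wildtype. Prox1, the defining transcription factor gene of granule cells, stood at 11.9 FPKM in Nes-cKO and 10.3 FPKM in wildtype. Of 9 measured CA1 and CA3 markers, 1 rose and 1 fell. Among interneuron markers 2 of 10 rose, Npy and Reln, and among astrocyte markers 2 of 8, Gfap and Aqp4. The other markers of these lists did not pass. Among endothelial and mural markers 1 of 8 rose. For microglia, 0 of 8 markers passed (0 also at an unadjusted Cuffdiff p of 0.05, whose share over all genes was not counted). In lists this short, 0 or 1 gene called is near the background. Of 8 thalamic markers, 3 fell and 1, Zic1, which is also on the cerebellar list, rose. Of 4 measured choroid plexus markers, Enpp2 and Ttr fell and the others did not pass. Aqp1, on the same list but below 1 FPKM in both genotypes, was not counted. It rose to 0.480 FPKM in Nes-cKO, against 0.125 FPKM in wildtype (q = 0.00152 in the authors' deposited table). No marker of these lists that the table held was at 0 in either genotype.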

How the data were processed

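Total RNA was extracted with Trizol and sequenced from stranded mRNA libraries according to the labels' protocols. Tools named in the submitters' processing notes are Cufflinks, Cuffdiff and CASAVA, without versions, and the build is mm9. No aligner is named in the sources used here. Per the file headers, the gene table holds the authors' FPKM, test score, p-value and q-value, with 1 FPKM per gene and genotype. Of 23235 genes, 14964 had a test. Adjusting the deposited p-values by the Benjamini-Hochberg method gave the deposited q-values to within 5.21e-07. The splicing tables hold, per the file headers, the authors' inclusion ratio (a fraction), p-value, junction read counts and exon coverage per genotype, with the scaling of the coverage not given in the sources used here. Suffixed junction and coverage columns were assigned to a genotype because the suffixed inclusion ratios equal the named ones in every row.

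From these were computed the log2 ratio of FPKM, Nes-cKO over wildtype, with no pseudocount, and counts past the authors' q of 0.05. The design provided for limma if values per mouse were found; none were, so expression was not tested again. Inclusion reads were the rounded mean of both inclusion junctions, compared by Fisher's exact test, which was tested on simulated data. The simulated events had equal reads at both inclusion junctions, unlike the Hipk3 exon, and no spread between mice. Their planted changes were far larger than that of the Hipk3 exon and started from lower inclusion. The simulation therefore does not show that a change of that size would be found. Locus starts count from 0 (6924 of 17033 loci matched RefSeq lengths that way and 436 the other) and are printed from 1. GENCODE M21 (GRCm38) gave exons and sequences, matched by exon sizes and span, since its build differs. Strands of neighbouring genes came from RefSeq.

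Members, 6 pathway lists and 10 marker lists were chosen with earlier results of these data known. Genes named are the 4 members, Rbfox1, up to 4 called genes per list (or its most abundant), the 5 genes nearest to Hipk4 and 2 nearest to each other member in level, and 3 neighbours on either side. Some that the rule selects are given by counts, and 1 is not reported here. Prox1, Cdkl1 and Aqp1 were added after their values were seen. Python 3.11.15, numpy 2.4.6, pandas 2.3.3, scipy 1.17.1 and matplotlib 3.10.9 were used.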

Additional observations from a re-analysis of the deposited data

How the results depend on the processing

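Of 36 alternatives over 12 results, 30 kept the direction and the side of the threshold, and counts within 1.5 times. Part of that count was fixed in advance. A pseudocount cannot change the sign of a HIPK ratio, a q threshold leaves the ratio as it is, and q was not recomputed. The 6 that moved concerned the lists, the Hipk3 exon and the genes nearest to Hipk4. The log2 ratio of Hipk4 was -2.34 with a pseudocount of 0.1, -1.87 with 1 and -2.44 after centring, and its call held at a q of 0.01. The changes of Hipk1, Hipk2 and Hipk3 kept their signs and stayed short of a q of 0.1. At a q of 0.01, the DYRK, CLK, PRP4 and SRPK list had 0 calls instead of 1 and the p53 targets 2 instead of 4. The change of the Hipk3 exon was 4.76 points from the mean of both inclusion junctions, 9.36 from the lower and 3.01 from the higher, instead of 14.2. With distance on log2(FPKM + 1), 3 of the 5 genes nearest to Hipk4 remained. The cause was not tested. No paired analysis was possible because the values combine the mice of a genotype, and for the same reason no mouse could be left out. Identity between the proteins was planned and not run.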

Other observations

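Hipk4 and Prx are neighbours that were both lower in Nes-cKO. Over the whole table, with tested genes ordered along each chromosome, 31 of the 343 genes called lower (9.04%) had a directly adjacent tested gene that was also called lower. Hipk4 and Prx are themselves among the 31, in which both genes of such a pair count. Of 13929 genes called in neither direction, 612 (4.39%) had an adjacent gene called lower. Of the 343 genes called lower, 25 (7.29%) had an adjacent gene called higher. More genes were called higher (692) than lower. How many genes called in neither direction had an adjacent gene called higher was not counted. The shares above were counted after the values of Prx had been seen and are given without a test, and overlapping genes can share reads.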
